A study of Mus musculus with 7 samples.

Results

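A set of 9 transcriptional regulators known from oligodendroglial progenitors and from the brake on oligodendrocyte differentiation were followed in cultured mouse oligodendroglia without KLF13. They are Sox5, Sox6, Sox4, Sox11, Sox2, Id1, Id2, Id3 and Id4, taken by name from a list of 9 genes and not by a cutoff on their measured change. The list was chosen with earlier results of these data known. All 9 were found among the 49315 gene identifiers of the count data, and all 9 were among the 18352 genes with enough counts for the test.

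The libraries came from primary oligodendroglia of newborn mouse brain of both sexes, obtained from mixed glial cultures by shake-off and depletion of microglia. In 4 libraries the mice were wildtype for Klf13 (controls), and in 3 libraries Klf13 was deleted constitutively, so that every cell type of these cultures and the mice they came from lacked it. Both groups were kept for 6 days in differentiation medium with thyroid hormones. The labels call the libraries biological replicates, and what libraries with the same number share is not given, so that p-values measure the spread between these libraries only.

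Sox proteins bind DNA with an HMG box. SOX5 and SOX6 belong to the SoxD group, which has no activation domain of its own and is known to counteract the differentiation factor SOX10 at its target genes in progenitors. SOX4 and SOX11 belong to the SoxC group of immature neural cells, and SOX2 to the SoxB1 group of neural stem cells. Id proteins have a helix-loop-helix domain but no DNA-binding basic region. They pair with E proteins and keep these from partners such as OLIG2, and BMP signals acting through SMAD proteins are a well-known inducer of Id genes.

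Of the 9 genes, 2 (Sox11 and Id3) were higher in the Klf13 knockout, where 11.6% of all tested genes were higher, and none was lower, where 12.2% were lower. Sox11 rose by 2.08 times and Id3 by 1.48 times. Both calls were lost without knockout replicate 2 and with the mean of neuron, astrocyte or fibroblast and mural cell markers as a covariate. Every knockout library was above every control in the neuron and astrocyte means, so that genotype and these means cannot be told apart well. The Sox11 call was also lost without control replicate 3, knockout replicate 1 or knockout replicate 3, and with no filter on low counts. Id4 had an estimate close to that of Sox11 but varied more between libraries and missed the threshold. It passed in 4 of 20 alternatives, among them DESeq2 and the replicate number as a block. The labels do not say that libraries of equal number are pairs. Its estimate was 0.56 without knockout replicate 2 and turned negative with the neuron or astrocyte covariate. Sox2, which had the highest level of the 9, and Id1 and Id2 had estimates near zero.

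The promoters of Sox11, Id3 and Id4, the 3 genes with the largest estimates, were chosen for these estimates, after their values were seen, and are shown because KLF proteins are known to bind GC-rich boxes. Each window runs from 250 bases before to 50 bases after a start site of RefSeq on GRCm38.p6, in the direction of the gene. Capitals mark the GC box, searched as CCGCCC on both strands, with overlapping matches joined.
Sox11, chr12:27342669-27342968, minus strand: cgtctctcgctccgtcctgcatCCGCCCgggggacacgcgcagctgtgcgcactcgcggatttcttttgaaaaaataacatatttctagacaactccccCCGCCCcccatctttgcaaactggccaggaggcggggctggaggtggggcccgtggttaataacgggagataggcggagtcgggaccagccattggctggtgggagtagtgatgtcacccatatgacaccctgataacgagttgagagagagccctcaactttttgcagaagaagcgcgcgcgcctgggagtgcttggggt
Id3, chr4:136143572-136143871, plus strand: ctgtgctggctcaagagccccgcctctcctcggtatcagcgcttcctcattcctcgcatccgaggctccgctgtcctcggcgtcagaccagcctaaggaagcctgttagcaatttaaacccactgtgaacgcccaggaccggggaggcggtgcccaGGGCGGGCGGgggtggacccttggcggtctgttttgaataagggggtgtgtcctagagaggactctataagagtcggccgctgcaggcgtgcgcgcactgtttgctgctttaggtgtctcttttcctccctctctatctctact
Id4, chr13:48260866-48261165, plus strand: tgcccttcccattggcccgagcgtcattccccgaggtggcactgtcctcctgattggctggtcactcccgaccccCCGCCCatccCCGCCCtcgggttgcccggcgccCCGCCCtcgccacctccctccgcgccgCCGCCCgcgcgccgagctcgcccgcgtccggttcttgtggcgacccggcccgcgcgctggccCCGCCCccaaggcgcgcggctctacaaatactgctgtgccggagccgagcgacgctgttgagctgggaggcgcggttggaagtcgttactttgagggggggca
The Sox11 window held 2 GC boxes, the Id3 window 2 that overlap each other and the Id4 window 5. Among 32851 promoter windows of 300 bases, 35.7% held at least 1. A window was found for 8 of the 9 genes, 13 windows in all because Sox6 had 6, and the box occurred in 6 of the 13 and in 6 of the 8 genes. A related box that KLF proteins are also known to bind, CCACCC on either strand, occurred in 2 of the 13 windows and in 2 of the 8 genes (Id2 and Id3), beside 31.5% of all windows, and is not capitalised. Sox2, whose estimate lay near zero, had 2 boxes, whereas Sox4 had none. The only Sox5 window (chr6:143947057-143947356) had none either, but it lies inside the gene span. No window covered the 5' end of the counted Sox5 gene at position 144781977. The counted exons of Id3 begin at position 136143497 on chromosome 4, so that the shown window overlaps the annotated gene. The shown windows of Sox11 and Id4 lie wholly upstream of the counted genes. A match to these letters is a description of the sequence, and no binding was measured in these libraries.

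Depth ranged from 24507471 to 59596479 counts on genes. Klf13 itself fell from 11340 ± 645 to 879.7 ± 79.8 normalised counts (SD, n = 4 and n = 3, adjusted p = 6.77e-06, edgeR), with every knockout library below every control. Normalised counts are counts scaled to a common library size. The libraries carried the markers of oligodendrocytes, whose 12 genes summed to 254000 to 282000 normalised counts per kilobase of exon in controls and to 98200 to 114000 in knockouts. Markers of other cells were present too. Of 18 neuron markers 14 were higher in the knockout, with sums of 6370 to 9250 in controls and 11800 to 16600 in knockouts, and of 15 astrocyte markers 10 were higher, with sums of 63000 to 71300 and 82100 to 96900. None of the neuron or astrocyte markers was lower, and none was at 0 in all libraries. Of 12 markers of oligodendrocyte progenitors (OPCs), 3 were higher and none lower. None of 11 microglia markers passed the test, but control replicate 3 stood apart with a sum of 63600 beside 14100 to 29800 in the other 6 libraries. The endothelial marker Cldn5 had 0 counts in every library except 1 count in 1 of them. Of the 6 endothelial markers tested 1 was lower, with sums of 127 to 261 in controls and 98.4 to 127 in knockouts, and of the 13 fibroblast and mural cell markers tested 1 was lower, with sums of 5410 to 14200 and 3160 to 5630. The 3 transcripts linked to ribosomal RNA reads (Gm42418, Gm23935 and Lars2) took 6.03% to 7.56% of the counts in control replicates 2 and 3 and knockout replicate 2, and 14.1% to 18.0% in the other 4 libraries.

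Per kilobase of exon, the 9 genes spanned a wide range of levels in controls. Sox2 led with 7080 ± 1580 normalised counts per kilobase (SD, n = 4), followed by Id2 with 4480 ± 459 and Id3 with 3320 ± 492. Sox4 stood at 2350 ± 560, Id1 at 1930 ± 337 and Sox6 at 1070 ± 107. The lowest levels were those of Id4 with 710 ± 281, Sox11 with 320 ± 112 and Sox5 with 148 ± 31. The ranges of neighbours in this order overlapped for Id3 and Sox4, for Sox4 and Id1, and for Sox6 and Id4, although Id3 was above Sox4 in each of the 4 controls. Even Sox5, the lowest of the 9, lay at or above 50.5% of all tested genes in controls, and Sox2 at or above 99.1%. These levels divide by all counted exon bases of a gene, 14376 for Sox5 and 14832 for Sox6. Their longest transcripts have 7243 and 8668 bases. For Id2 and Id4 the counted 1270 and 1660 bases are fewer than the 1969 and 3849 of the longest transcript. The order of levels therefore depends on the gene models, and other lengths were not tried.

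In knockouts the order changed at 2 places. Id3 moved ahead of Id2 with 4900 ± 411 against 4820 ± 124 normalised counts per kilobase (SD, n = 3), though their libraries overlapped. Id4 moved ahead of Sox6 with 1420 ± 644 against 1260 ± 96.6, again with overlap. Id1 and Id4 overlapped as well. Sox2 had the highest mean with 6380 ± 2020 but overlapped with Id3, Sox11 was eighth with 667 ± 79.5 and Sox5 was last with 194 ± 9.32.

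**Figure D1:**
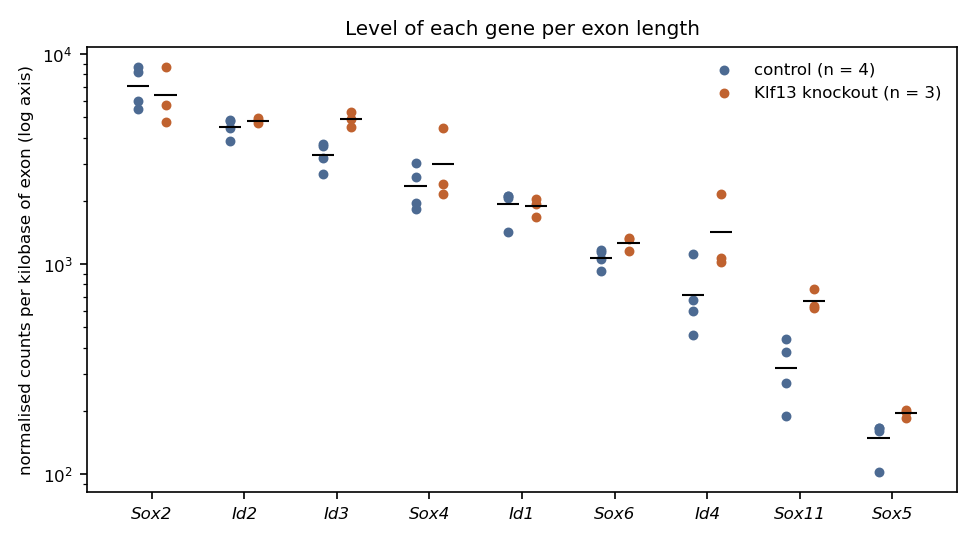
Level of each of the 9 genes, in the order of their control means, as normalised counts per kilobase of exon on a log axis. Points are libraries (blue, 4 controls; orange, 3 Klf13 knockouts) and bars are group means. Sox2 has the highest mean in both groups, overlapping Id3 in knockouts, and the 2 groups separate for Id3, Sox11 and Sox5.

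At an adjusted p of at most 0.05, 2 of the 9 genes were higher, where 11.6% of all tested genes were higher, and 0 were lower, where 12.2% were lower. At an unadjusted p under 0.05, edgeR had 5 of the 9 higher, beside 18.2% of all genes, and 0 lower, beside 18.4%. After adjustment, DESeq2 had 3 higher (Sox11, Id3 and Id4), beside 10.7% of its genes, and 0 lower, beside 12.4%. With limma voom, Sox11 and Id3 were higher, beside 12.4%, and 0 were lower, beside 12.2%. With the threshold of the study, which adds a log2 fold change of at least 1, Sox11 alone was higher beside 3.97% of all genes, and 0 were lower beside 3.08%. With the replicate number as a replicate block, the log2 fold change of Sox11 was 0.89 with an adjusted p of 0.0054 (edgeR), below this threshold of 1. In 3 genes (Sox5, Sox11 and Id3) every knockout library lay above every control, as in 18.3% of all genes, and in none did every knockout library lie below every control, as in 18.0%. The median log2 fold change of the 9 genes was 0.35, and that of all tested genes was 0. In bulk RNA of these cultures, fewer cells of a type and less RNA per cell cannot be told apart, which holds for all values given here.

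**Figure D2:**
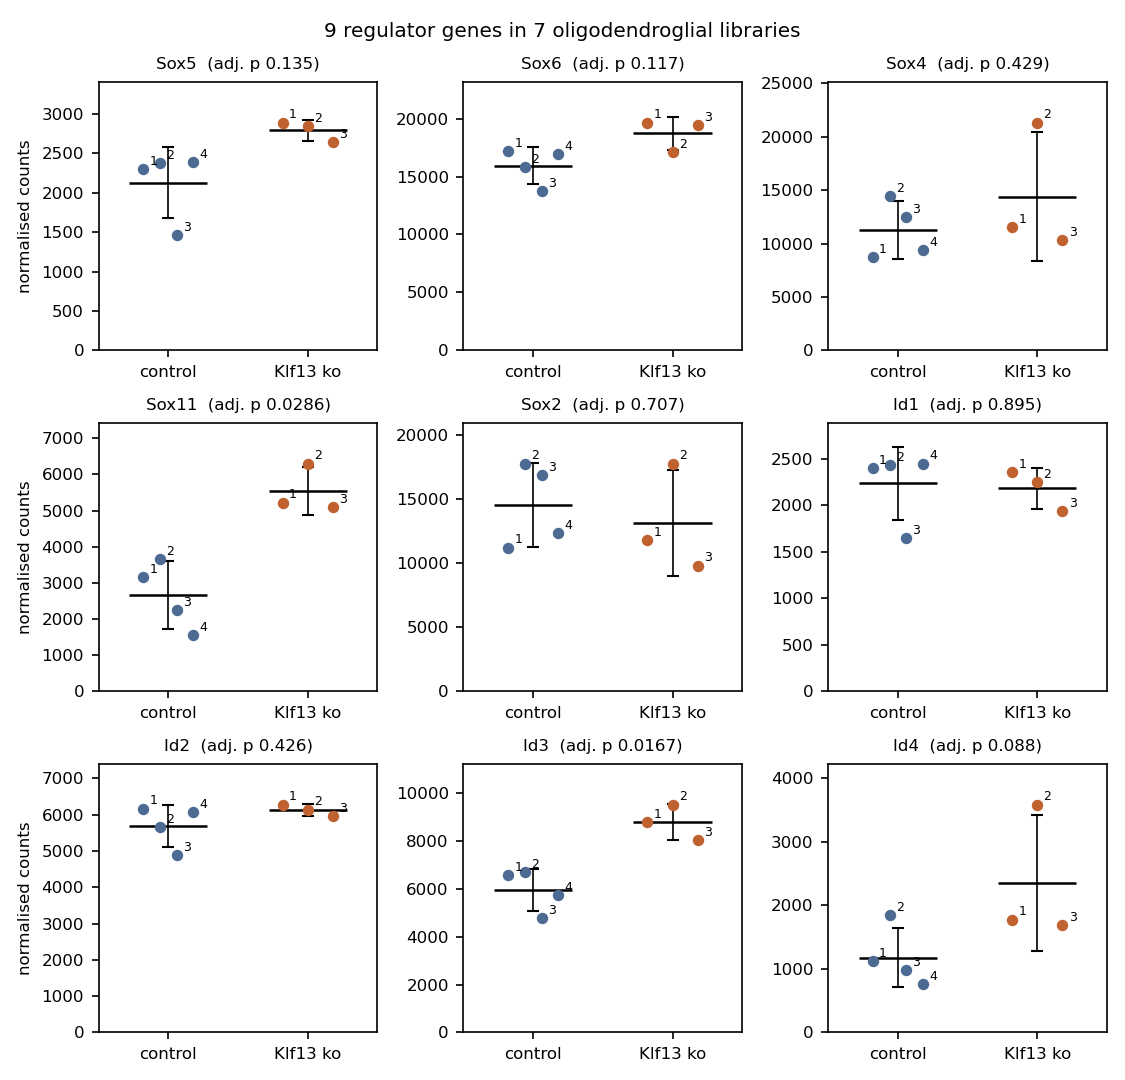
Normalised counts of the 9 genes in each library, on axes that start at 0. Blue points are the 4 controls and orange points the 3 Klf13 knockouts (Klf13 ko), numbered by replicate, with the group mean (bar), the SD (whiskers) and the adjusted p of edgeR. Knockout points lie clear of the controls for Sox5, Sox11 and Id3, and replicate 2 is the highest library of both groups for Sox4, Sox11, Sox2, Id3 and Id4.

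Sox5, the first SoxD gene (chr6:143828425-144781977, minus strand, GRCm38), had 2294, 2370, 1462 and 2387 normalised counts in control replicates 1 to 4. In knockout replicates 1 to 3 it had 2889, 2846 and 2638. The knockout libraries were all above the controls, among which replicate 3 was far below the other 3. The log2 fold change of 0.39 ± 0.17 (SE) missed the threshold with an adjusted p of 0.135 (edgeR). Without control replicate 3, the library that stood apart in microglia markers, it was 0.25 with an adjusted p of 0.0299, and the part of the microglia in these values was not tested.

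Sox6, the second SoxD gene (chr7:115470872-116038796, minus strand), lies on the same chromosome as Klf13. It was the more abundant of both, with 85.3% to 90.1% of the Sox5 and Sox6 counts per kilobase in every library. Controls had 17210, 15780, 13740 and 16970 normalised counts, and knockouts had 19660, 17080 and 19440. Knockout replicate 2 lay within the range of the controls, and the other 2 knockouts lay above it. The log2 fold change was 0.23 ± 0.09 (SE) with a 95% interval from 0.01 to 0.45 and an adjusted p of 0.117 (edgeR). Together, Sox5 and Sox6 went from 1220 ± 135 to 1460 ± 94.4 normalised counts per kilobase, a ratio of 1.19 (SD, n = 4 and n = 3).

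Sox11, a SoxC gene with a single exon (chr12:27334264-27342574, minus strand), had 3166, 3656, 2256 and 1560 normalised counts in control replicates 1 to 4. In knockout replicates 1 to 3 it had 5221, 6300 and 5100. The lowest knockout library was well above the highest control, and the controls themselves spread widely, with replicate 4 lowest. Means were 2660 ± 935 and 5541 ± 661 (SD), a fold of 2.08. This corresponded to a log2 fold change of 1.06 ± 0.27 (SE), with a 95% interval from 0.43 to 1.69 and an adjusted p of 0.0286 (edgeR).

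The 7 libraries stood in the same order by Sox11 as by the mean of the 18 neuron markers. In both, control replicate 4 was lowest, then controls 3, 1 and 2, then knockouts 3, 1 and 2. With the neuron marker mean as a covariate, the log2 fold change of Sox11 was -0.07 with an adjusted p of 0.856 (edgeR). With the astrocyte marker mean it was 0.10 with an adjusted p of 0.954, and with the fibroblast and mural cell marker mean 0.58 with an adjusted p of 0.16. Every knockout library was above every control in the neuron and in the astrocyte marker mean, so that genotype and the level of these markers cannot be told apart well in 7 libraries. The adjusted p of Sox11 was 0.0558 without control replicate 3, and 0.0619, 0.101 and 0.0529 without knockout replicates 1, 2 and 3, while the log2 fold change stayed between 0.90 and 1.25 whichever library was left out.

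Sox4, the other SoxC gene of the list (chr13:28948919-28953713, minus strand), provided 77.8% to 91.3% of the Sox4 and Sox11 counts per kilobase. Its normalised counts were 8729, 14460, 12480 and 9398 in controls and 11530, 21320 and 10310 in knockouts. Knockout replicate 2 was the highest of all libraries, and the other 2 knockouts lay within the range of the controls. Its log2 fold change was 0.35 ± 0.29 (SE), with a 95% interval from -0.32 to 1.02 and an adjusted p of 0.429 (edgeR). Without knockout replicate 2 the estimate was -0.05. An antisense gene, Gm26735, overlapped 54.6% of the Sox4 exon but had 0 or 1 count per library. The strand setting of the counting was not given. How reads over the shared bases were assigned, and whether some were left out of the Sox4 counts, is therefore not known.

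Sox2 (chr3:34650405-34652461, plus strand), the SoxB1 gene, had 11220, 17770, 16880 and 12350 normalised counts in controls. Knockouts had 11790, 17780 and 9812. The groups overlapped throughout, and the log2 fold change was -0.15 ± 0.24 (SE) with a 95% interval from -0.72 to 0.42 and an adjusted p of 0.707 (edgeR). This interval holds changes in either direction.

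Sox2 and Sox4 both separated the libraries by their share of ribosomal RNA-linked counts and not by genotype. All 3 libraries with a low share had more Sox2 and more Sox4 than any of the 4 with a high share. For Sox2, the low-share libraries exceeded the high-share ones by 0.56 on the log2 scale in controls and by 0.72 in knockouts. For Sox4, the corresponding differences were 0.57 and 0.97. Within the low-share class, the knockout library exceeded the mean of 2 controls in Sox4 by 0.66 on the log2 scale, and within the high-share class 2 knockouts exceeded 2 controls by 0.27. With this class as a block, an analysis chosen after the data were seen, the log2 fold change of Sox4 was 0.43 with an adjusted p of 0.0245 (edgeR), and Sox2 did not pass. What else distinguished the 2 classes of libraries was not tested.

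Id3 (chr4:136143497-136145755, plus strand) had 6557, 6688, 4778 and 5739 normalised counts in control replicates 1 to 4. In knockout replicates 1 to 3 it had 8793, 9513 and 8043. The groups did not overlap, and knockout replicate 2 was again highest. Means were 5940 ± 881 and 8783 ± 735 (SD), a fold of 1.48. In log2 terms the change was 0.56 ± 0.12 (SE), with a 95% interval from 0.28 to 0.85 and an adjusted p of 0.0167 (edgeR). The increase was 0.73 on the log2 scale in the low-share and 0.45 in the high-share libraries.

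Id3 is also expressed by astrocytes, and its lowest and highest libraries, control replicate 3 and knockout replicate 2, were the lowest and highest by the mean of the astrocyte markers. With that mean as a covariate, its log2 fold change was 0.05 with an adjusted p of 0.93, and with the neuron marker mean it was 0.21 with an adjusted p of 0.71 (edgeR). With the fibroblast and mural cell marker mean it was 0.3 with an adjusted p of 0.0809 (edgeR). As for Sox11, genotype and the neuron and astrocyte marker means cannot be told apart well in these libraries. Leaving out knockout replicate 2 raised the adjusted p of Id3 to 0.0655, with a log2 fold change of 0.50.

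Id4 (chr13:48261427-48264036, plus strand) had 1122, 1842, 986.4 and 764.7 normalised counts in controls. Knockouts had 1778, 3589 and 1696. Replicate 2 was the highest library in either group, and control replicate 2 lay above knockouts 1 and 3, so that the groups overlapped. The log2 fold change was 1.00 ± 0.36 (SE) with a 95% interval from 0.15 to 1.85 and an adjusted p of 0.088 (edgeR). With the replicate number as a replicate block, the estimate was 0.81 with an adjusted p of 0.00364 (edgeR). DESeq2 gave 0.99 with an adjusted p of 0.0339, and edgeR with the class of ribosomal RNA-linked share as a block gave 1.07 with an adjusted p of 0.0285. With the neuron marker mean as a covariate, the estimate was -0.46, and with the astrocyte marker mean it was -0.27, neither past the threshold. Both means cannot be told apart well from genotype in these libraries. Without knockout replicate 2 the estimate was 0.56 with an adjusted p of 0.307.

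Id1 (chr2:152736251-152737410, plus strand) had 2406, 2437, 1651 and 2451 normalised counts in controls and 2360, 2253 and 1940 in knockouts. Control replicate 3 was lowest, and the knockouts lay within the range of the controls. The log2 fold change of -0.04 ± 0.15 (SE) had a 95% interval from -0.38 to 0.31 and an adjusted p of 0.895 (edgeR). Control replicate 3 and knockout replicate 3, the lowest library of each group in Id1, were the 2 libraries with the highest microglia marker sums, 63600 and 29800.

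Id2 (chr12:25093801-25096092, minus strand) varied little between libraries. Controls had 6165, 5659, 4885 and 6072 normalised counts, and knockouts had 6278, 6140 and 5963. The ranges overlapped, with a log2 fold change of 0.11 ± 0.09 (SE), a 95% interval from -0.09 to 0.30 and an adjusted p of 0.426 (edgeR). A 2-fold change in either direction lies outside the intervals of Id1 and Id2.

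The make-up of the Id pool followed from these values. The sum of the 4 Id genes went from 10400 ± 1320 to 13000 ± 1190 normalised counts per kilobase, a ratio of 1.25 (SD, n = 4 and n = 3). Id3 made up 30.3% to 32.8% of this sum in controls and 37.3% to 37.9% in knockouts. Id1 made up 16.7% to 20% in controls and 13.6% to 15.7% in knockouts. The share of Id2 ran from 39.1% to 45.3% in controls and from 33.9% to 39.5% in knockouts, with overlap, and that of Id4 from 4.36% to 9.73% and from 8.27% to 15.2%. These sums and shares depend on the exon length used for each gene, as the levels do.

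**Figure D3:**
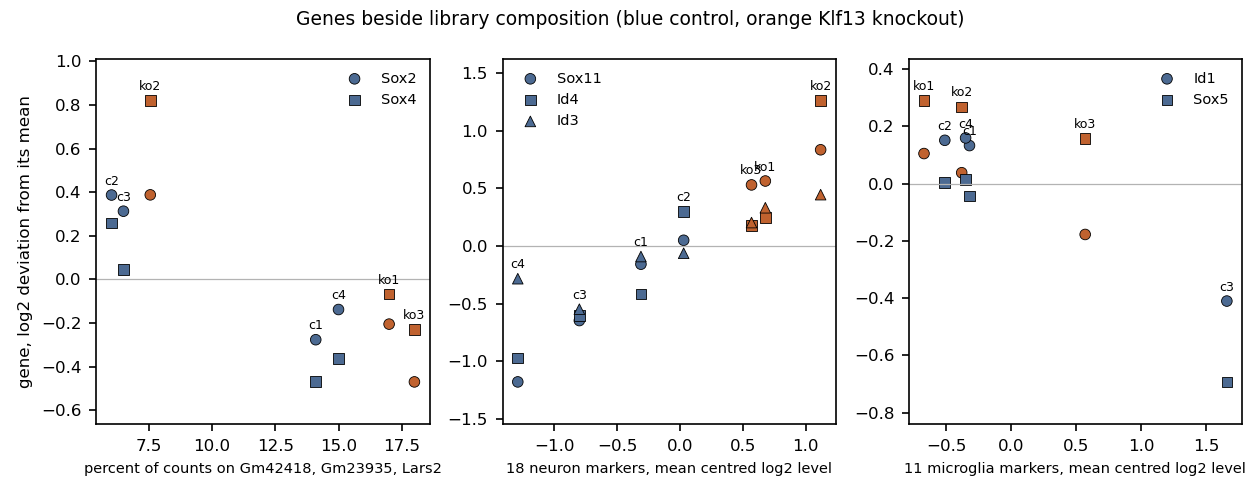
Log2 deviation of single genes from their mean over the 7 libraries, against the percent of ribosomal RNA-linked counts (left), the mean centred log2 level of the neuron markers (middle) and of the microglia markers (right). Blue symbols are controls (c1 to c4) and orange symbols Klf13 knockouts (ko1 to ko3). Sox2 and Sox4 are high in the 3 libraries with 6.03% to 7.56%, Sox11, Id4 and Id3 are highest in knockout 2, which has the highest neuron marker mean, while Id4 in control 2 lies above knockouts 1 and 3, and Id1 and Sox5 are lowest in control 3.

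Genes with the most similar pattern over the 7 libraries were sought among all tested genes by Pearson correlation of log2 CPM (counts scaled to a common depth). The libraries fall into 2 genotypes and share their depth and composition, so that these values are given as a description. Sox11 was closest to the glutamate receptor gene Gria1 and the cadherin gene Cdh4, both with r = 0.999. Both were higher in the knockout too, with adjusted p-values of 0.0259 and 0.0299 (edgeR). Id3 was closest to Sybu (r = 0.999), and Id4 to the RNA-binding protein gene Msi1 (r = 0.998) and Cdh24 (r = 0.995). Sox2 was closest to Mocs3 (r = 0.999) and Cadm4 (r = 0.998), Sox4 to Klc2 (r = 0.995) and Tomm40l (r = 0.992). Sox5 was closest to Trib2 (r = 0.993) and Pcdhga5 (r = 0.991), Sox6 to 4833421K07Rik and Ubxn7 (both r = 0.99). Id1 was closest to Spag9 (r = 0.982) and Nr4a1 (r = 0.98), and Id2 to 2510046G10Rik (r = 0.988) and Elovl5 (r = 0.987). Sox11 had 747 genes with r above 0.95, whereas Id1 had 14.

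Relatives of the 9 genes were counted as a list of 14 other Sox genes, of which 10 were tested. Of these 4 were higher and 0 lower, with a median log2 fold change of 0.37, where 11.6% of all tested genes were higher and 12.2% lower. The same shares apply to the counts of the other lists. Over these Sox genes and the bHLH, BMP and SMAD, and Hes and Hey lists below, 12 genes were higher. This count was 0 without knockout replicate 2, and 0 with the neuron or the astrocyte marker mean as a covariate. The SoxB1 gene Sox1 had 629.2, 1007, 425.2 and 317.3 normalised counts in controls and 1304, 2176 and 1416 in knockouts, a log2 fold change of 1.46 with an adjusted p of 0.0335 (edgeR). Sox9, a SoxE gene of glial progenitors and astrocytes, rose by 0.82 with an adjusted p of 0.0141, and Sox8, its oligodendroglial relative, by 0.27 with an adjusted p of 0.0205. Sox12, the remaining SoxC gene, rose by 0.55 with an adjusted p of 0.0361, and was named after its values were seen. The differentiation factor Sox10 had a log2 fold change of -0.31 with a 95% interval from -0.69 to 0.06 and an adjusted p of 0.207, and Sox21 one of -0.15 with an adjusted p of 0.618.

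Among the partners that Id proteins act on, 1 of 6 genes for E proteins and bHLH factors passed the test. The E protein gene Tcf4 was higher, with means of 23970 ± 2150 and 31030 ± 892 normalised counts (SD), a log2 fold change of 0.37 and an adjusted p of 0.0154 (edgeR), and none was lower. Olig1 and Olig2, the bHLH factors of the lineage, had log2 fold changes of -0.10 and -0.04, with adjusted p-values of 0.458 and 0.887. The median of the 6 was -0.02.

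Among 21 genes of BMP and SMAD signalling, 6 were higher and 3 lower, beside 11.6% and 12.2% of all genes, with a median of 0.19. With the replicate block, the count of lower genes over all lists of related genes was 2 instead of 3. Smad7, an inhibitory SMAD, had 2106, 2481, 2594 and 2337 normalised counts in controls and 808.8, 804.9 and 896.4 in knockouts. These groups were far apart, with a log2 fold change of -1.51 and an adjusted p of 8.2e-05 (edgeR). The ligand gene Bmp4 rose by 0.45 with an adjusted p of 0.0162, whereas Bmp2 had a log2 fold change of -1.75 with an adjusted p of 0.0194, at a low level of 95.81 normalised counts in controls, and Bmp7 one of -0.73 with an adjusted p of 0.0234. The receptor gene Bmpr1a rose by 0.21 and Smad4, the common partner of the receptor-regulated SMADs, by 0.15. The others that rose were the receptor genes Bmpr1b by 0.61 and Acvr1 by 0.41 and the pseudoreceptor gene Bambi by 0.67. Bmp7, Bmpr1b, Acvr1 and Bambi were named after their values were seen.

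Hes and Hey genes encode further repressors of bHLH factors, which act downstream of Notch. Of 5 tested, Hey1 was higher with a log2 fold change of 0.24 and an adjusted p of 0.0206 (edgeR), and none was lower. Hes5 had 446.9, 469.6, 225.2 and 344.5 normalised counts in controls and 599.4, 881.9 and 527 in knockouts. Its groups did not overlap, but its log2 fold change of 0.85 had an adjusted p of 0.065.

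**Figure D4:**
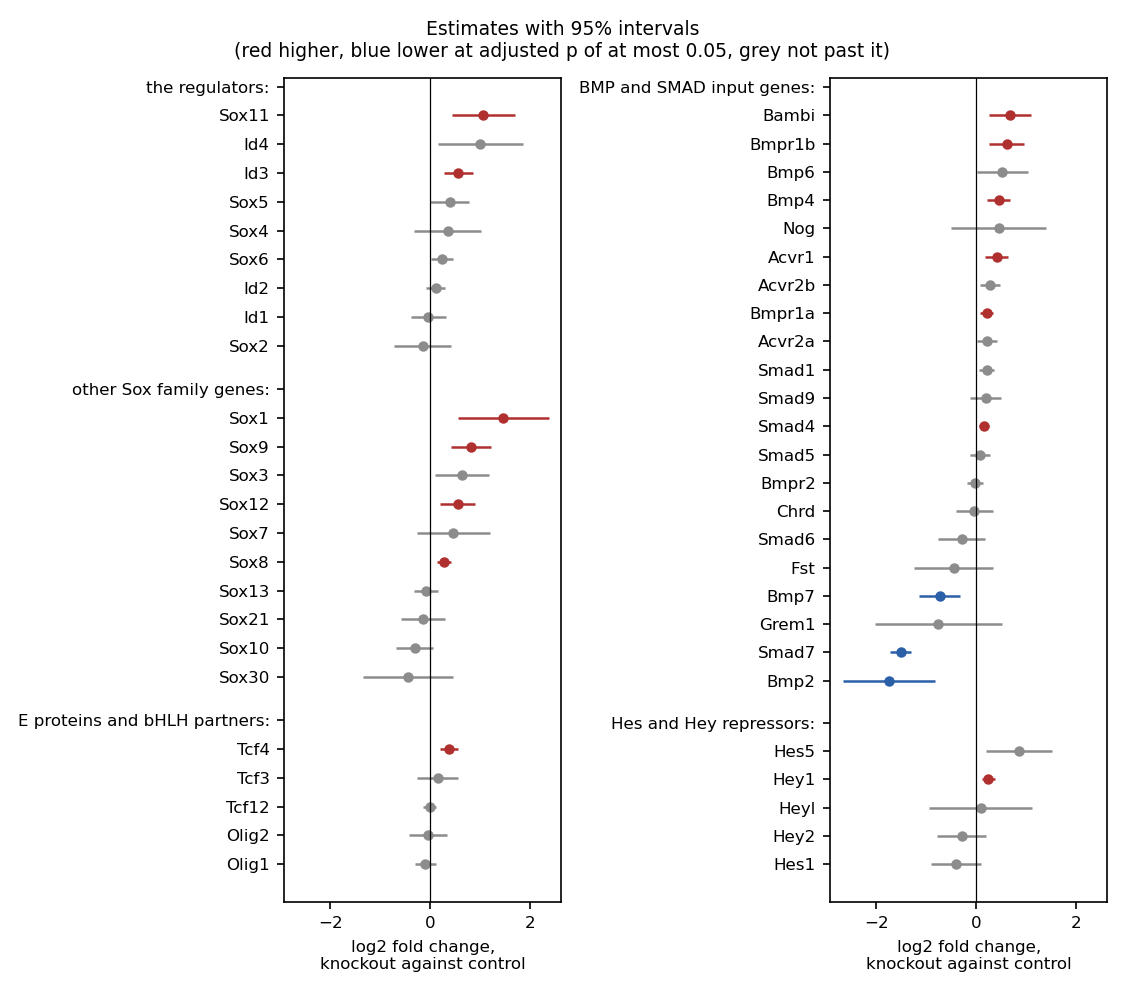
Log2 fold change of knockout against control with its 95% interval for the 9 genes and for 4 lists of related genes, of which 1 bHLH gene is not drawn. Red marks genes higher and blue genes lower at an adjusted p of at most 0.05 (edgeR), and grey those not past it. Sox11 and Id3 are red among the 9 genes, and Smad7 and Bmp2 lie farthest to the left.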

How the data were processed

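RNA was measured in 7 libraries. The authors trimmed reads with Trimmomatic 0.36, mapped them with STAR 2.5.2b to GRCm38 and counted unique hits in exons with Subread 1.5.2. The deposited values are whole-number counts per gene without normalization. Annotation release and strand setting are not given in the sources used here. Symbols were found for 48970 of 49315 identifiers.

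Counts were fitted in R 4.3.3 with edgeR 4.0.16 (filterByExpr by group, TMM factors, robust quasi-likelihood test, group as the only term), and p-values were adjusted by Benjamini-Hochberg over 18352 genes. Normalised counts are scaled to the mean TMM library size. Log2 CPM used a prior count of 2. The step was tested on simulated data.

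The 9 genes and the lists were chosen with earlier results of these data known. Non-members were named as Klf13, genes overlapping exons of the 9, the 3 highest and 3 smallest-p called genes of each list and the 2 most similar genes for each of the 9. Some genes that the rule named are not reported here.

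Control and knockout libraries of the same number had gene-wise deviations from group means that correlated at 0.11, 0.46 and 0.17 across genes, and those of different numbers at -0.53 to 0.20, so the number was also fitted as a replicate block, in which control replicate 4 has no partner. Other alternatives were DESeq2 1.42.0, limma 3.58.1 voom, other scalings and filters, marker means as covariates, and leaving out each library. The class of ribosomal RNA-linked share as a block was added after the data were seen. RefSeq promoter windows came from GRCm38.p6.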

Additional observations from a re-analysis of the deposited data

Results flagged for a closer look

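In the controls, Sox5 and Id1 each had a value far below the other 3, and in both it was control replicate 3. Sox5 had 1462 normalised counts there, with a gap of 0.9 of the range of the controls to the next library, and Id1 had 1651 with a gap of 0.943. Both exceeded Dixon's 95% critical value for 4 samples. These were 2 of 10 genes looked at (the 9 regulators and Klf13), where chance gives about 1 in 20. The same library had a microglia marker sum of 63600 normalised counts per kilobase and the highest fibroblast and mural cell marker sum, 14200. Without it, Id1 had a log2 fold change of -0.16 with an adjusted p of 0.222 (edgeR). The part of these cells in both values was not tested.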

How the results depend on the processing

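Under 20 alternatives for each of the 9 genes, 147 of 180 values kept direction and side of the threshold, and no gene was called lower. None of the 4 other scalings changed a call. The count of 2 higher genes became 1 with no filter on low counts, where Sox11 had an adjusted p of 0.112, and 0 with the neuron, astrocyte or fibroblast and mural cell marker mean as a covariate. It became 5 with the library class as a block (Sox6, Sox4 and Id4 added), where over all genes 2639 were higher and 2635 lower, and ran from 0 to 3 when single libraries were left out, 0 being without knockout replicate 2 and 1 without knockout replicate 1 or 3. Beside the 12 related genes that were higher, the count was 7 with no filter, 0 with the neuron or astrocyte covariate, 1 with the fibroblast and mural cell covariate, and 0 to 10 without single libraries (7 without control replicate 1, and 6, 0 and 5 without knockout replicates 1, 2 and 3). Beside the 3 related genes that were lower, the count was 1 with each of the neuron, astrocyte and fibroblast and mural cell covariates. It was 2 with the replicate block and 2 with at least 10 counts in every library. Without single libraries it was 1 to 3 (1 without knockout replicate 3).

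Directions turned for Sox11 (-0.07), Sox4 (-0.44) and Id4 (-0.46) with the neuron covariate, and for Sox5 (-0.11), Sox4 (-0.10), Id2 (-0.08) and Id4 (-0.27) with the astrocyte covariate. Id1 was 0.01 with total counts and 0.03 with the replicate block, and ran from -0.16 to 0.05 when single libraries were left out. Sox4 ran from -0.05 to 0.56 and Sox2 from -0.43 to 0.03. Among the 9 genes, the replicate block changed the call of Id4 at the adjusted p alone and that of Sox11 (0.89) at a log2 fold change of at least 1. The fibroblast and mural cell covariate gave Sox11 an adjusted p of 0.16 and Id3 one of 0.0809. Id4 ran from 0.56 without knockout replicate 2, with an adjusted p of 0.307, to 1.30 without control replicate 2, with an adjusted p of 0.0334. The causes were not tested.

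Over all genes, 2122 were higher and 2246 lower. These counts were 35 and 367 with the neuron covariate, 30 and 277 with the astrocyte covariate, 539 and 992 with the fibroblast and mural cell covariate, 1209 and 1254 without knockout replicate 1 and 850 and 1317 without knockout replicate 2.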

Other observations

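Sox2 lies within the span of Sox2ot, a non-coding gene on the same strand whose exons do not overlap it. Sox2ot was looked at after its values were seen. It had 6556 ± 521 normalised counts in controls and 5041 ± 113 in knockouts (SD, n = 4 and n = 3), a log2 fold change of -0.38 with an adjusted p of 0.00997 (edgeR), and every knockout library lay below every control, whereas Sox2 overlapped between the groups. The difference between both genes was not tested.

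The antisense gene A330033J07Rik, which overlaps 10.3% of the exon bases of Id4, had 6 to 40 counts per library and a log2 fold change of 0.91 with an adjusted p of 0.104 (edgeR). Sox5os1, antisense to 9.25% of the exon bases of Sox5, had 0 to 3 counts. Sox3, the third SoxB1 gene, had 1171, 1669, 1256 and 984.7 normalised counts in controls and 1666, 2672 and 1596 in knockouts, with replicate 2 highest in both groups as in Sox4, Sox11, Sox2, Id3 and Id4, a log2 fold change of 0.64 and an adjusted p of 0.0878 (edgeR). It was named after its values were seen.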
